A study of Mus musculus with 36 samples.

Results

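Mouse fibroblasts turned towards a photoreceptor fate with chemicals, here CiPC, were compared with the youngest rods for which values were given. The comparison used 7 libraries of RNA sequencing out of 36 samples in the series. The 3 CiPC libraries came from embryonic fibroblasts treated with 5 chemicals in photoreceptor induction medium and taken at day 11. The 4 rod libraries came from isolated rods, with 2 at postnatal day 2 (P2) and 2 at postnatal day 4 (P4), pooled as 1 group. All cells were of the Nrl-GFP strain, in which the promoter of Nrl, a transcription factor that specifies rods, drives a green fluorescent protein. The protocol text in the labels, which is the same for all samples, has the cells sorted by reporter expression. Untreated fibroblasts carry that text too, so it does not show which groups were selected for the reporter. The labels do not say whether replicates came from separate cultures or animals, and p-values measure the spread between these libraries, which may be technical. Within the pooled rods that spread also holds the difference between P2 and P4. Standard errors and confidence intervals are therefore wider at genes that change between these ages. Rods at P5 (n = 3), rods at P6 (n = 3) and the untreated starting fibroblasts at passage 2 (MEF, n = 3) are given beside the comparison for their levels.

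Rods are born in the retina from dividing progenitors until shortly after birth in the mouse. Otx2 and Crx switch on the photoreceptor program, Nrl directs the cell to the rod fate, and its target Nr2e3 represses cone genes. Young rods express these factors strongly before the light-sensing machinery, made of the visual pigment, transducin, phosphodiesterase and the cyclic GMP-gated channel, reaches its adult level. The outer segment that holds this machinery is built from a modified cilium after the first postnatal days.

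Per the labels, the data of the P2, P4 and P6 rods come from an earlier series, whereas the CiPC, the MEF and the P5 rods belong to this one. Series and cell type therefore cannot be told apart in the comparison with P2 and P4, and P5 values are given beside calls that were lost or turned sign against P5. Levels are normalized CPM, a read level per gene scaled for library size. Column sums were 819893 to 824208 in CiPC and 719752 to 802921 in the pooled rods, and 12983 to 12996 genes in CiPC and 12710 to 12940 in the rods reached 1 CPM. The 8 rod markers were present in both groups, with a summed level of 222 to 232 CPM in CiPC, 3081 to 3236 CPM at P2 and 5954 to 6435 CPM at P4. The rod libraries also held transcripts of other retinal cells. Retinal progenitor markers summed to 1311 to 1524 CPM in CiPC, 1784 to 2169 CPM at P2 and 854 to 1071 CPM at P4. Markers of fibroblasts summed to 92.3 to 118.6 CPM in CiPC, 16.4 to 17.4 CPM at P2 and 26.5 to 27.2 CPM at P4, against 8319 to 9904 CPM in the MEF. In such bulk samples fewer cells of a type and less RNA per cell cannot be told apart.

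Of 13606 genes tested with limma on log2(CPM + 1), 2847 were higher in CiPC (20.9% of those tested) and 2642 were lower (19.4%), where a call needed a 2-fold change or more and an adjusted p (Benjamini-Hochberg) under 0.05. The median log2 fold change over all genes tested was 0.00. The shares of 20.9% higher and 19.4% lower are the background for the list counts against P2 and P4 rods below. The libraries of the 2 groups did not overlap at 10053 genes (73.9%), so a lack of overlap was the common case. The photoreceptor factors Prdm1, Nr2e3 and Neurod1 were among the 15 lowest genes named by the rule, and the contractile genes Acta2, Tagln, Myl9 and Cnn2 were among the 15 highest. Scaling each library to an equal column sum moved the median log2 fold change of all genes by -0.11.

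**Figure D1:**
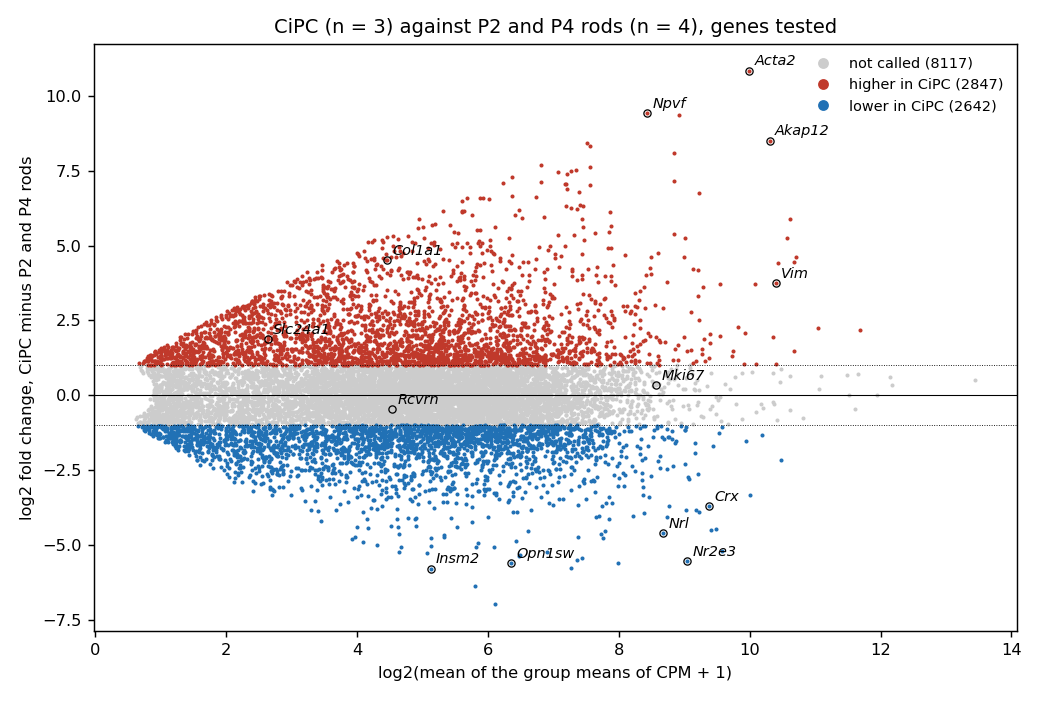
Log2 fold change of CiPC minus P2 and P4 rods (vertical) against log2 of the mean level in CPM + 1 (horizontal) for the 13606 genes tested, with 2847 called higher in red, 2642 called lower in blue and dotted lines at a fold of 2. Acta2 lies at the top at 10.85, Nr2e3 and Insm2 lie near the bottom at -5.56 and -5.79, and Rcvrn and Mki67 lie between the dotted lines.

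The transcription factors of the photoreceptor lineage were lower in CiPC than in young rods almost throughout. Of 18 factors tested out of 20 listed, 15 were lower, where 19.4% of all genes tested were, and 0 were higher, with a median log2 fold change of -3.05 beside 0.00 over all genes tested. Nrl (chr14:55518978-55524981, GRCm38) measured 30.9, 30.4 and 30.7 CPM in CiPC, against 698 and 682 CPM in P2 rods and 972 and 780.2 CPM in P4 rods. All CiPC libraries lay far below all rod libraries, with a log2 fold change of -4.62 (SE 0.13, adjusted p = 5.8e-09). Crx (chr7:15865947-15879968), the homeobox factor of rods and cones, measured 97.8, 94.5 and 86.8 CPM in CiPC, against 1104 and 1067 CPM in P2 rods and 1448 and 1348 CPM in P4 rods. Its log2 fold change was -3.71 (SE 0.13, adjusted p = 2.1e-08), a CiPC mean of 7.49% of the rod mean. Nr2e3 (chr9:59942771-59960659), the nuclear receptor downstream of Nrl, measured 21.4, 20.5 and 20.4 CPM in CiPC, against 1011 and 858 CPM in P2 rods and 1102 and 1149 CPM in P4 rods. This was the largest gap of these 3 rod factors, at -5.56 (SE 0.11, adjusted p = 1.5e-09), and the CiPC mean was 2.02% of the rod mean.

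Otx2 (chr14:48657677-48673819), which acts upstream of Crx, measured 75.8, 73.5 and 72.9 CPM in CiPC, against 991 and 1141 CPM in P2 rods and 1056 and 1127 CPM in P4 rods, and its log2 fold change was -3.84 (SE 0.09, adjusted p = 2.8e-09). Neurod1 (chr2:79452521-79456751), a helix-loop-helix factor needed for photoreceptor survival, measured 42.6, 40.0 and 35.6 CPM in CiPC, against 1216 and 1422 CPM in P2 rods and 1636 and 1683 CPM in P4 rods. The groups were again fully apart, at -5.20 (SE 0.13, adjusted p = 3.6e-09). Prdm1, a repressor that keeps young photoreceptors from becoming bipolar cells, measured 9.12, 9.11 and 9.46 CPM in CiPC, against 508 and 599 CPM in P2 rods and 471 and 411 CPM in P4 rods, with a log2 fold change of -5.59 (SE 0.13, adjusted p = 2.2e-09). The fibroblasts held little of these 6 factors, with means between 0.0719 CPM for Nr2e3 and 1.84 CPM for Prdm1, so the CiPC levels lay between those of the starting cells and of the rods. Mef2c, Nr1d1 and Tbx2 did not pass the test, with log2 fold changes of -0.32, 0.36 and 0.18. The 95% confidence intervals were -0.84 to 0.20, -0.05 to 0.77 and -0.53 to 0.89. Esrrb and Ikzf1 were under the filter on low values.

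**Figure D2:**
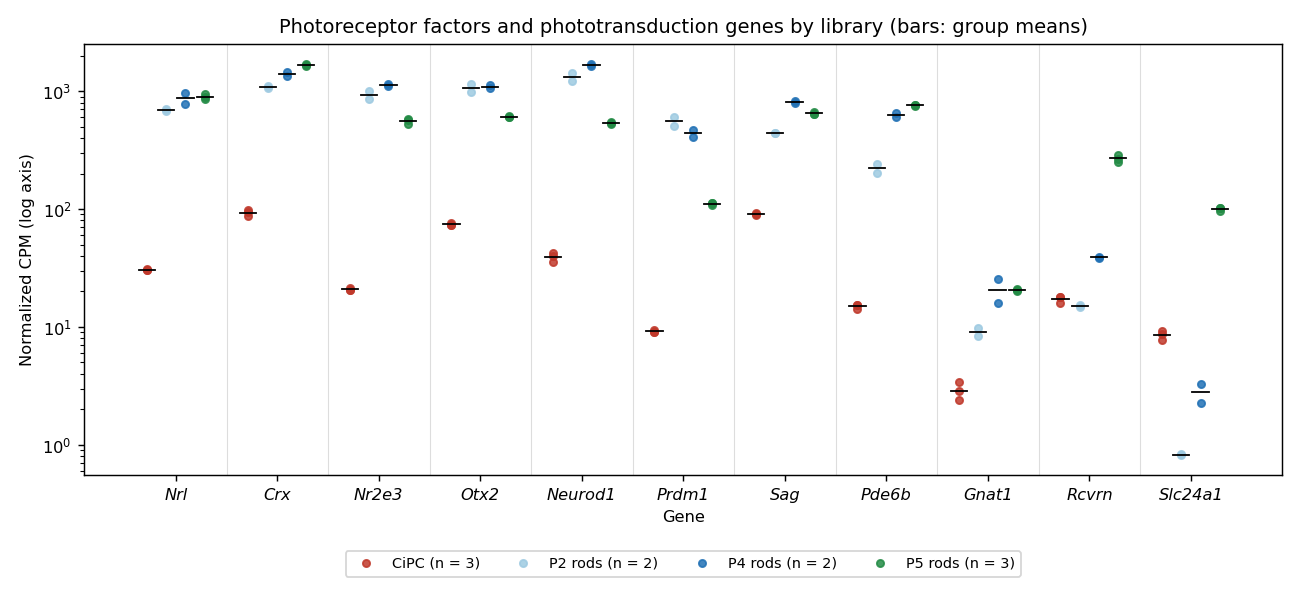
Normalized CPM (log axis) of 11 photoreceptor genes in each library of CiPC (n = 3), P2 rods (n = 2), P4 rods (n = 2) and P5 rods (n = 3), with bars at the group means. CiPC points lie below those of the P2 and P4 rods for Nrl to Gnat1, beside those of the P2 rods for Rcvrn at 16 to 18 CPM, and above them for Slc24a1 at 7.74 to 9.29 CPM.

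The genes of the rod light response were lower in CiPC at 21 of 26 members and higher at 1, with a median log2 fold change of -2.26 beside 0.00 over all genes. Pde6b (chr5:108388391-108432397), a catalytic subunit of the phosphodiesterase that breaks down cyclic GMP, measured 15.2, 14.2 and 15.5 CPM in CiPC, against 203 and 243 CPM in P2 rods and 652 and 603 CPM in P4 rods. Both ages lay well above CiPC, and the log2 fold change was -4.55 (SE 0.39, adjusted p = 5.4e-06). Sag (chr1:87803680-87845158), the rod arrestin that ends the signal of the visual pigment, measured 90.5, 88.8 and 91.8 CPM in CiPC, against 438 and 441 CPM in P2 rods and 826 and 798 CPM in P4 rods. It kept a larger share of the rod level, 14.4%, and its log2 fold change was -2.71 (SE 0.24, adjusted p = 6.4e-06). Gnat1 (chr9:107674474-107679712), the transducin alpha subunit of rods, was low in all 7 libraries, with 2.39, 3.43 and 2.84 CPM in CiPC, against 9.73 and 8.41 CPM in P2 rods and 25.4 and 16.1 CPM in P4 rods, and its log2 fold change was -1.92 (SE 0.33, adjusted p = 0.00052). The largest gap of the list was at Kcnv2, a silent subunit of the photoreceptor potassium channel, with 3.84, 4.13 and 4.85 CPM in CiPC, against 85.3 and 128 CPM in P2 rods and 250.2 and 199.6 CPM in P4 rods and a log2 fold change of -4.87 (SE 0.32, adjusted p = 9.1e-07). Pdc, the transducin-binding protein phosducin, had a log2 fold change of -3.92 (SE 0.27, adjusted p = 1.3e-06).

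The promoters of 2 genes of these groups are shown because they hold a motif bound by Crx and Otx2, TAATCC, which was searched on both strands and is written in capitals. They run from 250 bases before to 50 bases after the gene start, in RefSeq on GRCm38.p6, both 5′ to 3′ along the gene. The promoter of Crx lies at chr7:15879906-15880205 on the minus strand and that of Sag at chr1:87803430-87803729 on the plus strand.
Crx: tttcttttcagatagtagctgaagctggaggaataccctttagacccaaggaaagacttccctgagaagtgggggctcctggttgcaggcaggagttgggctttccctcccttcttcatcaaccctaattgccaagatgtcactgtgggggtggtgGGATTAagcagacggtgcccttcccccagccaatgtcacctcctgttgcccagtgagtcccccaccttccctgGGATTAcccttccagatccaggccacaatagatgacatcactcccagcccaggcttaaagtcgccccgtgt
Sag: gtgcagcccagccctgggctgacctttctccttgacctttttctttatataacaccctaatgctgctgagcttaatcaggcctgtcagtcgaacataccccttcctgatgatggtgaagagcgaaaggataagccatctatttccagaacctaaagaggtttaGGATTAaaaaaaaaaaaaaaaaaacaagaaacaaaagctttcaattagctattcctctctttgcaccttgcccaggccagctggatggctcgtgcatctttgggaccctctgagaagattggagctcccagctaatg
Crx held the motif at 2 places, which makes 12 bases in capitals, and Sag at 1 place, both read on the other strand as GGATTA. Among the rod phototransduction genes 9 of 16 with a promoter entry held TAATCC, and among the photoreceptor transcription factors 6 of 18 did. The share was 7.04% over the 10385 genes tested that have an entry, and 7.06% over all 32851 promoters. Of the outer segment genes 4 of 17 and of the contractile genes 0 of 10 held it. A match is a description of these letters and not a site of binding.

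Recoverin and the exchanger departed from the other phototransduction genes. Rcvrn (chr11:67695326-67703333), a calcium sensor of the light response, measured 18, 17.9 and 16 CPM in CiPC, against 14.8 and 15.5 CPM in P2 rods and 39.3 and 38.7 CPM in P4 rods. CiPC lay just above P2 and well below P4, and the log2 fold change against the pooled rods was -0.48 with a 95% confidence interval of -1.26 to 0.31 (adjusted p = 0.24). Slc24a1, the rod sodium, calcium and potassium exchanger, measured 9.29, 8.72 and 7.74 CPM in CiPC, against 0.837 and 0.815 CPM in P2 rods and 3.31 and 2.28 CPM in P4 rods, and was higher in CiPC at 1.87 (SE 0.30, adjusted p = 0.00036). P5 rods had 102, 102 and 96.6 CPM of Slc24a1, so that CiPC was lower when set against P5, at a log2 fold change of -3.40. P5 rods also had 251, 265 and 289 CPM of Rcvrn, and the log2 fold change of CiPC against them was -3.88. Gnb1, Guca1b and Gnb5 did not pass the test either, with log2 fold changes of -0.47, 0.21 and -0.97. Gnb5, which stabilises the complex that shuts off transducin, showed no overlap and missed the fold threshold, and Guca1b, which activates guanylate cyclase, measured 1.39, 1.61 and 1.18 CPM in CiPC, against 0.871 and 0.942 CPM in P2 rods and 1.31 and 1.17 CPM in P4 rods. Against P5 rods these 3 were lower, at -1.53, -3.15 and -1.90.

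The distance of CiPC from rods depended on the rod age for these genes. Between P4 and P2 rods 119 genes were higher at P4 (0.875% of those tested) and 345 were lower (2.54%), and 14 of the 26 phototransduction genes were among the higher ones. Without P2 replicate 2 the count of higher genes was 216. Pde6b was higher at P4 than at P2 by a log2 difference of 1.49, Rcvrn by 1.31 and Gnat1 by 1.08. Against P4 alone 23 phototransduction genes were lower in CiPC, beside 20.6% of all genes tested, and against P2 alone 16 were lower, beside 18.6%. The members called against P4 and not against P2 included Pde6a, a phosphodiesterase subunit, and Grk1, the kinase of the rod pigment, together with Gucy2f, Rgs9bp, Rcvrn and Gnb5. Nrl, Crx, Nr2e3, Otx2, Neurod1 and Prdm1 were lower in CiPC against either age.

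The outer segment, its cilium and the synapse of the photoreceptor followed the same direction. Of 23 outer segment genes 20 were lower and 0 were higher, with a median log2 fold change of -3.01. Rp1, a microtubule protein of the axoneme, measured 44.9, 49.3 and 53.3 CPM in CiPC, against 537 and 795 CPM in P2 rods and 2063 and 1813 CPM in P4 rods, with a log2 fold change of -4.49 (SE 0.42, adjusted p = 9.8e-06). Rpgrip1, a connecting cilium protein, measured 58.2, 60.9 and 60.6 CPM in CiPC, against 1257 and 1063 CPM in P2 rods and 1754 and 1439.8 CPM in P4 rods, and its log2 fold change was -4.48 (SE 0.16, adjusted p = 2.1e-08). The interphotoreceptor matrix proteoglycan Impg2 and the transport protein Tulp1 were lower at -4.07 and -4.06. Fscn2 and Cabp4 did not pass, at -0.89 and -0.96, and were low in all 7 libraries, with 0.793, 0.763 and 0.628 CPM in CiPC, against 1.77 and 2.52 CPM in P2 rods and 2.09 and 3.17 CPM in P4 rods for Cabp4.

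Of 33 genes of ciliary transport and the transition zone 19 were lower and 0 were higher, with a median log2 fold change of -1.53. Cep290 at the base of the connecting cilium measured 30.4, 29.4 and 36 CPM in CiPC, against 292 and 311 CPM in P2 rods and 538 and 508 CPM in P4 rods, with a log2 fold change of -3.60 (SE 0.22, adjusted p = 6.6e-07). Bbs5, a subunit of the Bardet-Biedl complex, and Rpgr, which partners Rpgrip1, were lower at -3.13 and -2.94. The 14 members that did not pass were mostly intraflagellar transport subunits, 9 of them named Ift, which serve all ciliated cells. Of 25 ribbon synapse genes 17 were lower and 2 were higher, with a median of -1.77. Elfn1, which links rods to bipolar cells, measured 1.59, 1.14 and 0.728 CPM in CiPC, against 39.4 and 44.7 CPM in P2 rods and 44 and 42.5 CPM in P4 rods, and was lower at -4.36 (SE 0.16, adjusted p = 2.5e-08). Sv2b, Egflam and Snap25 were lower at -3.68, -3.46 and -3.32. Among the higher members was Dag1, which encodes the widely expressed matrix receptor dystroglycan, at 2.90 (SE 0.13, adjusted p = 6.8e-08).

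Cone genes were also lower in CiPC, at 13 of 14 tested members, with a median log2 fold change of -2.51. Opn1sw, the short-wavelength cone opsin, measured 1.86, 1.89 and 2.7 CPM in CiPC, against 207 and 194 CPM in P2 rods and 135 and 101 CPM in P4 rods, with a log2 fold change of -5.62 (SE 0.24, adjusted p = 6.6e-08). P5 rods had 4.23, 3.33 and 3.42 CPM, close to the level in CiPC, and against P5 the log2 fold change of -0.57 was not called. Gngt2 and Pde6h, the cone transducin gamma and phosphodiesterase gamma subunits, were lower at -5.52 and -5.26, and Cngb3, a subunit of the cone channel, at -4.74. Gnb3, the transducin beta subunit of cones, kept 214, 205 and 192 CPM in CiPC, against 471 and 388 CPM in P2 rods and 319 and 266 CPM in P4 rods, and missed the fold threshold at -0.79. In the retinoid cycle, which regenerates the chromophore, 6 of 12 genes were lower and 2 were higher. Rbp3, the retinoid carrier made by photoreceptors, was lower at -3.33 (SE 0.13, adjusted p = 3.9e-08), and Rdh8 and Abca4 were lower at -1.55 and -1.36, although neither was called against P2 alone. The higher members included Rlbp1, which Müller glia use.

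**Figure D3:**
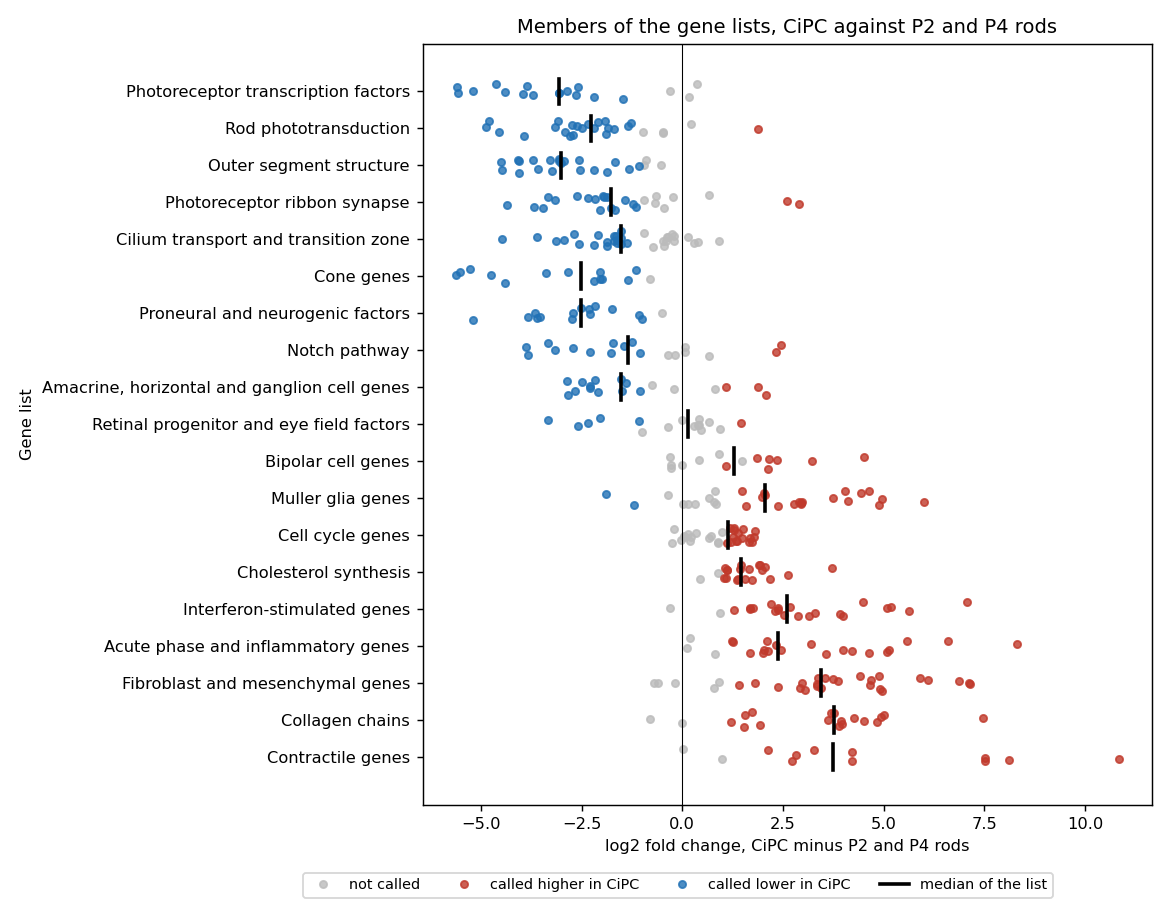
Log2 fold change of CiPC minus P2 and P4 rods (horizontal) for the tested members of 19 gene lists (vertical), with points coloured by call and bars at the list medians. Medians run from -3.05 for photoreceptor transcription factors to 3.76 for collagen chains.

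The neurogenic program was lower in CiPC than in P2 and P4 rods. Of 15 proneural and neurogenic factors tested 14 were lower and 0 were higher, with a median log2 fold change of -2.51. Neurod4 measured 62.4, 66.2 and 70.0 CPM in CiPC, against 645 and 966 CPM in P2 rods and 1163 and 1136 CPM in P4 rods, with a log2 fold change of -3.83 (SE 0.19, adjusted p = 1.8e-07), and the zinc finger factor Insm1 was lower at -3.65 (SE 0.12, adjusted p = 1.3e-08). Insm2 had the largest gap among the lower genes named by the rule, with 0.246, 0.185 and 0.188 CPM in CiPC, against 80.7 and 83.1 CPM in P2 rods and 48 and 58 CPM in P4 rods and a log2 fold change of -5.79 (SE 0.20, adjusted p = 1.9e-08). Against P5 rods alone 4 of 11 members were lower, where 18.5% of all genes tested were.

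Of 18 Notch pathway genes, which hold progenitors back from differentiating, 11 were lower and 2 were higher, with a median of -1.35. The ligands Dll3 and Dll4 were lower at -3.87 and -3.16, and the target genes Heyl and Hes5 at -3.82 and -3.33. Hes5 varied widely among the rods, with 11.3, 8.89 and 5.31 CPM in CiPC, against 303 and 125 CPM in P2 rods and 42.6 and 41.8 CPM in P4 rods, and P5 rods had 1.22, 1.2 and 1.38 CPM, so against P5 the direction turned, at 2.01. Dll3 and Heyl were not called against P5, at -0.81 and -0.41. Over the list, 6 of 18 genes were higher and 3 were lower against P5 rods, with a median of -0.24. Over all genes tested against P5, 24.8% were higher and 18.5% were lower, so these counts are near the background. The 2 higher members were the receptor Notch2 at 2.45 (SE 0.14, adjusted p = 3.9e-07) and Lfng, a glycosyltransferase that modifies Notch, at 2.31 (SE 0.32, adjusted p = 0.00013).

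Most retinal progenitor and eye field factors did not pass the test. Of 16 tested, 5 were lower, 1 was higher and 10 did not pass, with a median log2 fold change of 0.14. Pax6 measured 164, 164 and 155 CPM in CiPC, against 249 and 216 CPM in P2 rods and 92.8 and 134 CPM in P4 rods, with CiPC between the ages, a log2 fold change of 0.00 and a 95% confidence interval of -0.67 to 0.67. Rax, which specifies the eye field and is also used by photoreceptors, was lower at -2.58 (SE 0.32, adjusted p = 6.6e-05), the secreted Wnt modulator Sfrp2 at -2.33 and Fgf15 at -2.05. Against P5 rods Rax was not called, at -0.30, and Sfrp2 and Fgf15 turned sign, at 0.74 and 2.10. The higher member was the Wnt receptor Fzd5 at 1.47 (SE 0.32, adjusted p = 0.0023), which was not called against P2 alone. The progenitor list itself was lower in P4 than in P2 rods at 7 members, where 2.54% of all genes tested were. It was lower in P5 than in the P2 and P4 rods at 15 of 16, where 15.1% of all genes tested were. Against P5 rods alone 12 members were higher in CiPC, where 24.8% of all genes tested were, and 1 was lower. The part of progenitor cells among the isolated young rods in these differences was not tested.

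Genes of amacrine, horizontal and ganglion cells were lower in CiPC at 12 of 18 members and higher at 3, with a median of -1.52. Over all genes tested 19.4% were lower and 20.9% were higher. Onecut1 and Onecut2 were lower at -2.87 and -2.82, the amacrine factor Tfap2b at -2.67 and the neurofilament gene Nefl at -2.50. Tfap2b measured 9.81, 9.55 and 10.4 CPM in CiPC, against 105 and 108 CPM in P2 rods and 34.4 and 54.9 CPM in P4 rods, and 3.61, 3.34 and 3.69 CPM in P5 rods. Calb1, Rbpms and Isl1 were higher in CiPC at 2.09, 1.87 and 1.07, with Isl1 at 116, 117 and 116 CPM in P5 rods. Against P5 rods 4 of 14 members were higher and 3 were lower, with a median of 0.15. Over all genes tested against P5, 24.8% were higher and 18.5% were lower, so these counts are near the background. Isl1, Tfap2b and Nefl turned sign against P5, at -2.88, 1.26 and 0.19. The Isl1 call was lost without P2 replicate 1 or without P2 replicate 2, at a log2 fold change of 0.90 in both cases.

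Bipolar cell genes were higher in CiPC than in P2 and P4 rods or did not pass the test. Of 14 tested, 7 were higher and 0 were lower, with a median of 1.28. The 5 defining bipolar markers summed to 128 to 138 CPM in CiPC, 55.7 to 72.1 CPM at P2 and 106 to 113 CPM at P4. They summed to 446 to 461 CPM in P5 rods. In the MEF the sum was 72.9 to 80.9 CPM, with only 1 marker at a mean of at least 1 CPM. Grm6, which ON bipolar cells use to sense glutamate, measured 34.4, 36.6 and 35.9 CPM in CiPC, against 0.107 and 0.0782 CPM in P2 rods and 2.16 and 0.755 CPM in P4 rods, with a log2 fold change of 4.51 (SE 0.34, adjusted p = 2.4e-06). The channel Trpm1, which lies downstream of it, measured 24.3, 22.6 and 24.5 CPM in CiPC, against 2.42 and 1.33 CPM in P2 rods and 2.35 and 0.899 CPM in P4 rods, and Gpr179, its scaffold, was higher at 2.34 (SE 0.14, adjusted p = 6e-07). Vsx1 was higher at 2.16 (SE 0.40, adjusted p = 0.00082). P5 rods exceeded CiPC at these genes, with 214, 214 and 218 CPM of Grm6 and 78.6, 71.3 and 71.7 CPM of Trpm1. Against P5 alone 14 of 15 members were lower in CiPC, where 18.5% of all genes tested were. Gpr179 and Vsx1 were lower against P5 at -1.83 and -2.28. P6 rods, of the older series, had 20.8, 24.4 and 23.1 CPM of Grm6. Prkca and Cabp5 did not pass the test, at -0.30 and 0.00, with confidence intervals of -0.91 to 0.30 and -0.41 to 0.42.

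**Figure D4:**
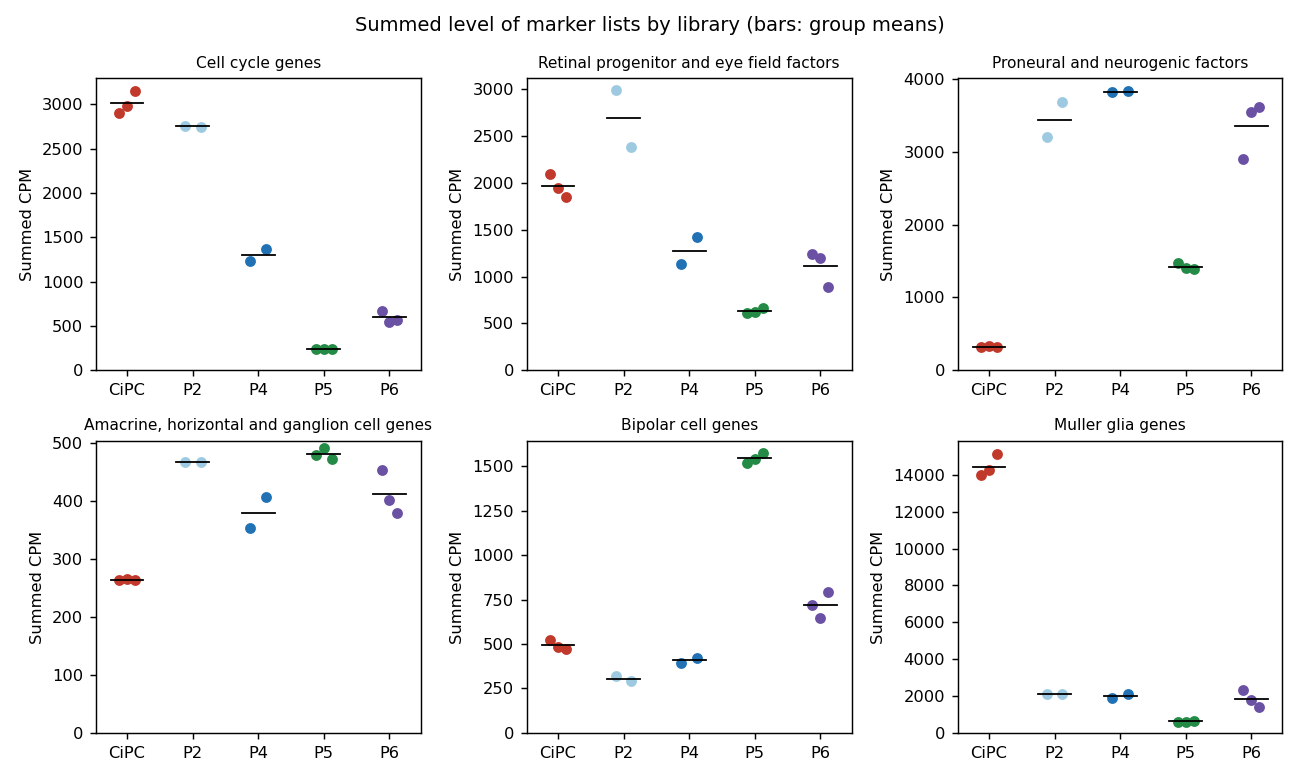
Summed normalized CPM (vertical, from 0) of 6 marker lists in each library of CiPC, P2, P4, P5 and P6 rods, with bars at the group means. Cell cycle genes sum to 2905 to 3148 CPM in CiPC, near the 2746 to 2758 CPM of P2 rods and above the other rods, and Müller glia genes sum to 14000 to 15098 CPM in CiPC, against 1887 to 2134 CPM in P2 and P4 rods.

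Müller glia genes were higher in CiPC at 19 of 29 members, where 20.9% of all genes tested were, and lower at 2, with a median log2 fold change of 2.05. Müller cells are the radial glia of the retina, and several of these genes are also active in fibroblasts. The 7 defining markers summed to 4340 to 4630 CPM in CiPC, 734 to 795 CPM at P2 and 777 to 866 CPM at P4, with 2841 to 2922 CPM in the MEF. Vim is among these markers and measured 2393 to 2648 CPM in CiPC and 2654 to 2709 CPM in the MEF. Rlbp1 (chr7:79374870-79387048), the retinaldehyde-binding protein of Müller glia, measured 258, 258 and 273 CPM in CiPC, against 47 and 59.6 CPM in P2 rods and 136 and 154 CPM in P4 rods, and 0.242, 0.035 and 0.463 CPM in the MEF. Its log2 fold change was 1.57 (SE 0.38, adjusted p = 0.0041), and it was not called against P4 alone. Cp, the copper-carrying ferroxidase ceruloplasmin, reached 2925, 3109.6 and 3599 CPM in CiPC, against 106 and 126 CPM in P2 rods and 134 and 153 CPM in P4 rods, with a log2 fold change of 4.63 (SE 0.14, adjusted p = 9e-09) and 7.06 CPM on average in the MEF. The secreted chaperone Clu was higher at 4.97 (SE 0.14, adjusted p = 6e-09), Cav1 at 6.01 (SE 0.15, adjusted p = 2.8e-09) and the hyaluronan receptor Cd44 at 4.88 (SE 0.14, adjusted p = 6.1e-09). Cav1 and Cd44 were higher still in the MEF, with means of 590.0 and 843 CPM.

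Glul (chr1:153899944-153909723), glutamine synthetase, was near the fold threshold, with 460.5, 465 and 467 CPM in CiPC, against 271 and 327 CPM in P2 rods and 217 and 241 CPM in P4 rods and a log2 fold change of 0.83 (SE 0.14, adjusted p = 0.00046). Gfap, the intermediate filament of reactive glia and astrocytes, measured 51.9, 50.3 and 48.7 CPM in CiPC, against 1.85 and 0.826 CPM in P2 rods and 3.16 and 2.51 CPM in P4 rods, at 4.12 (SE 0.25, adjusted p = 6.3e-07). The glial transcription factor Sox9 was lower in CiPC at -1.89 (SE 0.25, adjusted p = 9.5e-05) and Rgr at -1.21 (SE 0.18, adjusted p = 0.0002). P5 rods had 7.35, 6.15 and 7.57 CPM of Sox9, and against them CiPC was higher at 1.18. The Rgr call was lost against P4 alone, at -0.98, and against P5, at -0.83. Vim (chr2:13573927-13582826), vimentin, which is shared by glia and fibroblasts, measured 2393, 2504 and 2648 CPM in CiPC, against 184 and 169.6 CPM in P2 rods and 181 and 213 CPM in P4 rods. It was higher in CiPC at 3.75 (SE 0.11, adjusted p = 8.2e-09), close to the 2654, 2690.3 and 2709 CPM of the MEF.

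The transcripts of dividing cells summed to 2905 to 3148 CPM in CiPC, against 2746 to 2758 CPM in P2 rods and 1235 to 1373 CPM in P4 rods, over 30 genes of the cell cycle. Of these genes 16 were higher and 0 were lower in CiPC, with a median of 1.14. Mki67 (chr7:135689784-135716361), the proliferation antigen, measured 380.3, 407 and 434 CPM in CiPC, against 444 and 505 CPM in P2 rods and 202 and 239.9 CPM in P4 rods, with a log2 fold change of 0.33 and a 95% confidence interval of -0.34 to 1.00. CiPC lay below both P2 libraries and above both P4 libraries. Top2a behaved alike, with 279, 285 and 314 CPM in CiPC, against 377 and 416 CPM in P2 rods and 167 and 191 CPM in P4 rods and a log2 fold change of 0.14. The mitotic kinases Plk1 and Cdk1 were higher in CiPC at 1.81 (SE 0.33, adjusted p = 0.00083) and 1.74 (SE 0.33, adjusted p = 0.0011), and the replication helicase subunits Mcm3 and Mcm5 at 1.79 and 1.67.

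Against P2 alone 4 of the 30 cell cycle genes were higher (19.7% of all genes tested), and against P4 alone 21 were (22.7%). In the rods themselves 21 of these genes were lower at P4 than at P2, where 2.54% of all genes tested were, and P5 rods had only 4.25, 5.04 and 4.16 CPM of Mki67. Among CDK inhibitors and D cyclins 6 of 13 were higher and 0 were lower, where 20.9% and 19.4% of all genes tested were. Ccnd2 measured 327, 341 and 351 CPM in CiPC, against 5.2 and 4.45 CPM in P2 rods and 4.43 and 4.71 CPM in P4 rods, at 5.90 (SE 0.10, adjusted p = 5.9e-10), and 1482 CPM in the MEF. Ccnd3 was higher at 3.05 (SE 0.17, adjusted p = 3.1e-07), the inhibitor Cdkn2b at 4.66 (SE 0.13, adjusted p = 6.1e-09) and the p53 target Cdkn1a at 3.46 (SE 0.40, adjusted p = 4.3e-05). Cdkn1a was at 206, 205 and 213 CPM in P5 rods, so that against them it was lower in CiPC, at -1.46. Ccnd1, the main D cyclin of retinal progenitors, measured 907, 822 and 798 CPM in CiPC, against 1134 and 1022 CPM in P2 rods and 334 and 446 CPM in P4 rods, and its log2 fold change of 0.38 had a confidence interval of -0.51 to 1.28.

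Contractile genes of smooth muscle and myofibroblasts were among the genes with the largest differences. Of 12 tested 10 were higher in CiPC and 0 were lower, with a median log2 fold change of 3.74. Acta2 (chr19:34241090-34255590), smooth muscle actin, measured 2056, 2021 and 2012 CPM in CiPC, against 0.0856 and 0.0829 CPM in P2 rods and 0.216 and 0.0331 CPM in P4 rods. It was almost silent in the rods and abundant in CiPC, with the largest log2 fold change of the named genes at 10.85 (SE 0.11, adjusted p = 3.7e-11), and the MEF held 6703, 6782 and 6737 CPM. Tagln, an actin-binding protein of smooth muscle, measured 977, 939 and 826 CPM in CiPC, against 3.47 and 1.92 CPM in P2 rods and 3.1 and 1.29 CPM in P4 rods, with a log2 fold change of 8.10 (SE 0.22, adjusted p = 5.1e-09). The myosin light chain Myl9 and calponin Cnn2 were higher at 7.52 (SE 0.25, adjusted p = 1.5e-08) and 7.51 (SE 0.23, adjusted p = 8.9e-09). Myh11, the smooth muscle myosin heavy chain, missed the threshold at 0.99 and reached only 1.4, 1.4 and 1.1 CPM in CiPC, beside a MEF mean of 105 CPM.

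The promoters of Cnn2 and Myl9 are shown because each holds a CArG box, the element bound by serum response factor, which drives many contractile genes. They cover the same window of RefSeq on GRCm38.p6, with the CArG box in capitals. Cnn2 lies at chr10:79988350-79988649 and Myl9 at chr2:156775214-156775513, both on the plus strand.
Cnn2: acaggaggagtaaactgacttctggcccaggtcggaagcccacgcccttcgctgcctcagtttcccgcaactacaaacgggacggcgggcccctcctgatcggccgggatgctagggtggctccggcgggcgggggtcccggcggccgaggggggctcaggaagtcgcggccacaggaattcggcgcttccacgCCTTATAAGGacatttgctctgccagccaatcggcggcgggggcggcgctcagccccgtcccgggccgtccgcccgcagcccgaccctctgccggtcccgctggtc
Myl9: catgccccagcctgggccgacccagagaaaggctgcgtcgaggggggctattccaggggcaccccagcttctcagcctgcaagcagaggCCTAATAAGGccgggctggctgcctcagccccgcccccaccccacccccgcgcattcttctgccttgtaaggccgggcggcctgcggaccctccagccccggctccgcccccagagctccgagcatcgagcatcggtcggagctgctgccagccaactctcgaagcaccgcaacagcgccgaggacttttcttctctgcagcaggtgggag
Of the contractile genes with a promoter entry 2 of 10 held a CArG box in this window, searched on both strands. The share was 1.58% over the tested genes with an entry and 1.63% over all promoters of the table. None of the 16 rod phototransduction promoters and none of the 17 collagen promoters held one.

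**Figure D5:**
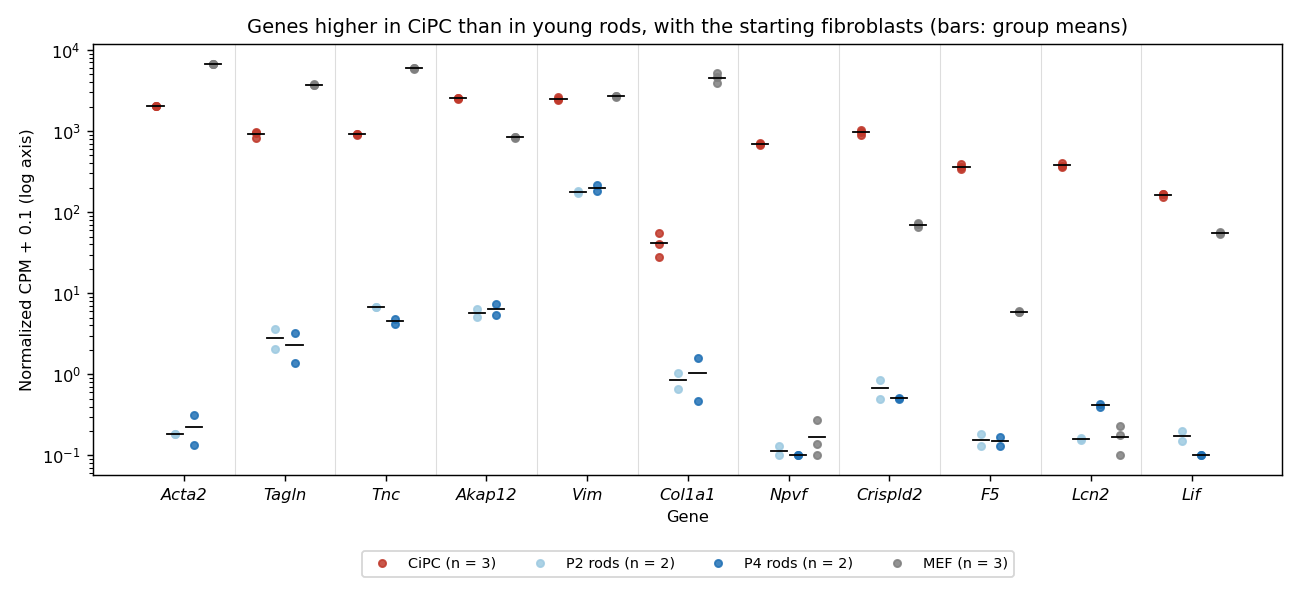
Normalized CPM + 0.1 (log axis) of 11 genes higher in CiPC, in each library of CiPC (n = 3), P2 rods (n = 2), P4 rods (n = 2) and MEF (n = 3), with bars at the group means. Acta2, Tagln, Tnc and Col1a1 are higher in the MEF than in CiPC, and Npvf, at 671 to 713 CPM in CiPC, is near 0 in the MEF and the rods.

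Genes of fibroblasts and their matrix were higher in CiPC at 24 of 29 tested members and lower at 0, with a median of 3.43. Tnc, the matrix protein tenascin C, measured 916, 894 and 910.2 CPM in CiPC, against 6.58 and 6.74 CPM in P2 rods and 4.69 and 4.1 CPM in P4 rods, at 7.14 (SE 0.16, adjusted p = 1.9e-09), beside 5979.5 CPM on average in the MEF. S100a6, Lgals1 and Anxa2 were higher at 7.12, 6.88 and 6.11. Of 19 collagen chains 17 were higher and 0 were lower, with a median of 3.76. Col1a1 (chr11:94936224-94953042), the main chain of fibrous collagen, measured 55.2, 40.3 and 28.1 CPM in CiPC, against 0.557 and 0.937 CPM in P2 rods and 0.365 and 1.5 CPM in P4 rods, with a log2 fold change of 4.51 (SE 0.27, adjusted p = 4.9e-07), and 3894, 4608 and 5132 CPM in the MEF. CiPC therefore lay well above the rods and far below the starting fibroblasts. Col8a1 was higher at 7.48 (SE 0.18, adjusted p = 2.8e-09), the basement membrane chains Col4a1 and Col4a2 at 4.92 and 5.00, and Col5a1 at 4.83. Thy1 and Pdgfra, surface markers of fibroblasts, did not pass the test, with log2 fold changes of -0.59 and -0.70. Thy1 measured 2.02, 2.00 and 1.97 CPM in CiPC, against 3.41 and 3.32 CPM in P2 rods and 2.63 and 4.98 CPM in P4 rods, and a MEF mean of 121 CPM. Against P5 rods Pdgfra was higher in CiPC, at 2.23.

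Among transcription factors of mesenchyme 8 of 16 tested were higher and 2 were lower, with a median of 1.00. Twist1 measured 20.6, 20.5 and 19.1 CPM in CiPC, against 0.0507 and 0.0506 CPM in P2 rods and 0 and 0 CPM in P4 rods, with a MEF mean of 31 CPM. The chromatin protein Hmga2 was higher at 4.36 (SE 0.13, adjusted p = 8.6e-09), Runx1 at 3.81 (SE 0.15, adjusted p = 4.7e-08) and Prrx1 at 2.73 (SE 0.17, adjusted p = 6.4e-07). Klf4 and Zeb1 were lower, at -1.71 and -1.26, and against P5 rods Klf4 turned sign, at 2.07, and Zeb1 was not called, at -0.70. The Hox genes, which mark the position of body fibroblasts along the axis and are not used in the retina, were near 0 in CiPC and in rods. None of the 31 in the table passed the filter on low values in these 7 libraries, and the highest value in a CiPC library was 0.335 CPM for Hoxc9, beside 1.19 CPM in the highest rod library. All 31 had a mean of at least 1 CPM in the MEF, with Hoxb9 at 52.5 CPM. Of 21 targets of TGF-beta and YAP signalling 14 were higher and 2 were lower, with a median of 2.64. Ctgf and Cyr61, matricellular proteins, were higher at 6.35 (SE 0.13, adjusted p = 1.7e-09) and 4.63 (SE 0.11, adjusted p = 2.8e-09), and the receptor Axl at 4.42. The lower members were Skil at -2.18 and Pmepa1 at -1.01, both of which dampen TGF-beta signalling. The Pmepa1 call was lost without CiPC replicate 3, without P2 replicate 1 and without P2 replicate 2, at log2 fold changes between -0.91 and -0.79, and against P5 rods the value was 0.92.

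The other genes with the largest differences were at low or at high levels in the MEF. Npvf (chr6:50650672-50654439), a neuropeptide precursor of the RFamide family, measured 671, 686 and 713 CPM in CiPC, against 0 and 0.0299 CPM in P2 rods and 0 and 0 CPM in P4 rods, with 0.17, 0.0394 and 0 CPM in the MEF and 0.743, 0.785 and 0.885 CPM in P5 rods. CiPC stood alone at a high level, with a fitted log2 fold change of 9.42 (SE 0.11, adjusted p = 9.3e-11). Lcn2, an iron-sequestering acute phase protein, measured 399, 370.3 and 359 CPM in CiPC, against 0.0556 and 0.0624 CPM in P2 rods and 0.299 and 0.336 CPM in P4 rods, and 0.069 CPM on average in the MEF, at 8.32 (SE 0.14, adjusted p = 5.9e-10). The coagulation factor gene F5 was higher at 8.43 (SE 0.12, adjusted p = 2.6e-10), with 5.75, 5.89 and 5.84 CPM in the MEF. Crispld2, a secreted protein, was higher at 9.35 (SE 0.13, adjusted p = 2.6e-10), with 66, 70.6 and 73.7 CPM in the MEF. Akap12, a scaffold of protein kinase A, measured 2514, 2552 and 2518 CPM in CiPC, against 6.28 and 5.03 CPM in P2 rods and 5.34 and 7.36 CPM in P4 rods, at 8.51 (SE 0.12, adjusted p = 2.6e-10), with a MEF mean of 836 CPM. The cytokine Lif was at 168, 165 and 154 CPM in CiPC, against 0.049 and 0.0979 CPM in P2 rods and 0 and 0 CPM in P4 rods, with 3.84, 5.15 and 5.43 CPM in P5 rods and a MEF mean of 54.9 CPM. Spp1, Cryab and Anxa3 completed the highest genes named by the rule, at 7.68, 7.63 and 7.39. Their MEF means were 841 CPM for Spp1, above CiPC, 146 CPM for Cryab and 249 CPM for Anxa3.

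Among neuropeptides and granule proteins 5 of 14 were higher and 5 were lower in CiPC, where 20.9% and 19.4% of all genes tested were. Scg2 measured 353, 383 and 430.4 CPM in CiPC, against 8.43 and 9.03 CPM in P2 rods and 8.2 and 6.73 CPM in P4 rods, at 5.42 (SE 0.12, adjusted p = 2.1e-09), whereas the related granule proteins Scg3 and Chgb were lower at -2.33 (SE 0.11, adjusted p = 9.7e-08) and -2.09 (SE 0.09, adjusted p = 4.7e-08). The processing enzyme Pcsk2 and the neuropeptide Gal were higher at 2.05 and 1.31, and neither was called against P5, at 0.89 and 0.94. Pan-neuronal genes were lower at 11 of 24 and higher at 3, where 19.4% and 20.9% of all genes tested were.

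Inflammatory, interferon and antioxidant genes were higher in CiPC at most members. Of 22 acute phase and inflammatory genes tested, out of 27 with values, 19 were higher and 0 were lower, with a median of 2.38. Hp, Orm1, Orm2, Cxcl2 and Il6 were under the filter on low values. Lcn2, Ccl2 and Ccl20 were under 1 CPM in all 4 rod libraries, so they could not be called lower. The chemokine Ccl2 measured 95.3, 97.8 and 107 CPM in CiPC, against 0.101 and 0.022 CPM in P2 rods and 0 and 0.0393 CPM in P4 rods, at 6.60 (SE 0.13, adjusted p = 1e-09), and Ptgs2, the inducible cyclooxygenase, was higher at 5.57 (SE 0.14, adjusted p = 3.5e-09). Ccl20 reached 31.9, 33.8 and 36.1 CPM in CiPC and was listed at 0 in all 4 rod libraries. Of 22 interferon-stimulated genes 20 were higher and 0 were lower, with a median of 2.61. Ifitm3 measured 142, 148 and 155 CPM in CiPC, against 0.088 and 0.142 CPM in P2 rods and 0.157 and 0.0422 CPM in P4 rods, and Bst2, B2m and H2-K1, the last 2 parts of the class I antigen complex, were higher at 5.62, 5.17 and 5.08. P5 rods were themselves higher than P2 and P4 rods at 14 of these interferon genes, where 9.48% of all genes tested were, and against P5 alone 12 were higher in CiPC, where 24.8% of all genes tested were, and 1 was lower. Markers of macrophages were higher at 12 of 15 tested and lower at 1, P2ry12 at -1.33. Lyz2 measured 149, 161 and 176 CPM in CiPC, against 0.581 and 0.113 CPM in P2 rods and 1.01 and 0.947 CPM in P4 rods, with 225 CPM in the MEF. The 5 defining macrophage markers C1qa, C1qb, Csf1r, Cx3cr1 and Ptprc summed to 16.9 to 20.3 CPM in CiPC, 5.7 to 10.1 CPM at P2 and 5.5 to 9.5 CPM at P4. In the MEF they summed to 173.6 to 195.2 CPM, above CiPC. C1qa and Cx3cr1 did not pass the test. The part of macrophages in the inflammatory genes was not tested.

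Of 20 NRF2 and antioxidant genes 14 were higher and 0 were lower, with a median of 1.65. These 20 genes summed to 2582 to 2609 CPM in CiPC and 721 to 752 CPM in the P2 and P4 rods. The MEF sum was 2408 to 2472 CPM, near that of CiPC. Hmox1, heme oxygenase, measured 343, 330.2 and 320.1 CPM in CiPC, against 2.22 and 1.76 CPM in P2 rods and 1.33 and 2.8 CPM in P4 rods, at 6.80 (SE 0.17, adjusted p = 3e-09). The metallothioneins Mt1 and Mt2 were higher at 3.98 and 4.56 and Txnrd1, thioredoxin reductase, at 2.95 (SE 0.10, adjusted p = 1.6e-08). Of 21 cholesterol synthesis genes 19 were higher and 0 were lower, with a median of 1.46. Msmo1, a sterol methyl oxidase, measured 153, 169 and 185 CPM in CiPC, against 36 and 44.3 CPM in P2 rods and 32.8 and 33.2 CPM in P4 rods, at 2.18 (SE 0.13, adjusted p = 4.5e-07), and Mvd, a decarboxylase of the mevalonate pathway, was higher at 2.06 (SE 0.16, adjusted p = 3.3e-06). Against P5 neither was called, at 0.47 and 0.55. P5 rods were higher than the P2 and P4 rods at 16 of these genes (9.48% of all genes tested). Against P5 alone 4 were called higher in CiPC (24.8% of all genes tested).

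Of the glycolysis genes some were higher and some lower, with 8 of 25 higher and 4 lower, and with 5 higher and 4 lower under equal column sums or quantile normalization. Over all genes tested 20.9% were higher and 19.4% were lower, so the count is near the background. Eno1 measured 3845, 3441 and 3169.7 CPM in CiPC, against 749 and 749.8 CPM in P2 rods and 656 and 798 CPM in P4 rods, at 2.24 (SE 0.13, adjusted p = 4.6e-07), and the glucose transporter Slc2a3 was higher at 2.02. Ldha, the lactate dehydrogenase subunit used by photoreceptors, measured 530.3, 511 and 482 CPM in CiPC, against 1344 and 1487 CPM in P2 rods and 1616 and 1408 CPM in P4 rods, at -1.52 (SE 0.11, adjusted p = 2.2e-06), and Pdk1, which limits entry of pyruvate into mitochondria, was lower at -1.41, and higher against P5 rods at 1.16. Of the 12 DNA methylation enzymes and readers 4 were lower and 2 were higher, with 1 higher under equal column sums. This too is near the share over all genes tested, and the list median was -0.13. The 5-methylcytosine dioxygenases Tet2, Tet1 and Tet3 were lower at -2.50 (SE 0.14, adjusted p = 3e-07), -1.96 and -1.70. Uhrf1 and Mbd2 were the 2 higher members. Tet2 measured 22.2, 31.2 and 26.1 CPM in CiPC, against 133 and 149.6 CPM in P2 rods and 174 and 158 CPM in P4 rods, with a MEF mean of 15.6 CPM.

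Axin2 (chr11:108920349-108950783), a feedback inhibitor that reports Wnt signalling, measured 5.54, 6.22 and 3.27 CPM in CiPC, against 14.3 and 12.2 CPM in P2 rods and 12.1 and 13.5 CPM in P4 rods. It was lower in CiPC at -1.25 (SE 0.19, adjusted p = 0.00026), and the MEF had 4.74, 6.60 and 6.98 CPM. Of 19 Wnt pathway genes 7 were higher and 2 were lower, where 20.9% and 19.4% of all genes tested were. The other lower member was Sfrp2, and Lef1, Nkd1 and Znrf3 were among the 10 that did not pass. Dkk2, Tcf7l1, Wnt5a and Sfrp1 were higher at 3.15, 2.83, 2.08 and 1.96. Of 12 insulin-like growth factor genes 8 were higher and 0 were lower, with Igfbp3 at 7.06 (SE 0.24, adjusted p = 1.5e-08) and Igfbp2 at 5.38 (SE 0.21, adjusted p = 3.8e-08). Of 8 endothelial and pericyte genes tested 4 were higher and 2 were lower, where 20.9% and 19.4% of all genes tested were. Eng, Cspg4, Emcn and Kdr were higher, and Cldn5 and Rgs5 were lower. Kdr, which retinal progenitors also use, measured 598, 624 and 654 CPM in CiPC. P2 rods had 259 and 304 CPM and P4 rods 247 and 295 CPM, a log2 fold change of 1.18 (SE 0.11, adjusted p = 8.7e-06). Pecam1 did not pass and Cdh5 was under the filter.

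The lowest genes named by the rule included several with a role outside the lists. Epha8, an ephrin receptor, measured 4.53, 4.66 and 3.7 CPM in CiPC, against 433 and 361 CPM in P2 rods and 214 and 200.4 CPM in P4 rods, at -5.77 (SE 0.26, adjusted p = 8.8e-08). Pitpnm3, a phosphatidylinositol transfer protein, was lower at -5.45 (SE 0.20, adjusted p = 2.9e-08) and Doc2b, a calcium sensor of vesicle release, at -5.35 (SE 0.15, adjusted p = 6.1e-09). Kif19a, Shisa2, Prob1 and Col17a1 were lower at -5.38, -5.23, -5.07 and -5.07, and Ndufa4l2, a mitochondrial complex subunit, at -5.24. Ndufa4l2 measured 0.27, 0.272 and 0.25 CPM in CiPC, against 55.5 and 52.2 CPM in P2 rods and 36.5 and 45.3 CPM in P4 rods, and 0.516, 1.02 and 0.55 CPM in P5 rods. Pitpnm3 measured 9.02, 4.82 and 6.63 CPM in CiPC, against 290.2 and 274 CPM in P2 rods and 409 and 375 CPM in P4 rods, and 427, 452 and 457 CPM in P5 rods.

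P5 rods, from the same series as CiPC, differed from the pooled P2 and P4 rods at many genes. Of 13288 genes tested 1260 were higher at P5 (9.48%) and 2005 were lower (15.1%). Of all called genes 38.6% were higher ones, and 48.6% under quantile normalization, where 1559 were higher and 1648 were lower. Setting P5 against the mean of P4 and P6 rods, which bracket P5 in age, gave 1119 higher (8.36%) and 1784 lower (13.3%). That comparison was chosen after the data were seen. Rods of P5 were lower than P2 and P4 rods at 29 of 30 cell cycle genes, 15 of 16 progenitor factors, 13 of 15 proneural factors and 18 of 29 Müller glia genes, and higher at 12 of 14 bipolar genes. Against P5 rods alone 15 of the photoreceptor transcription factors were lower in CiPC and 0 were higher, and 25 of the 26 phototransduction genes were lower. Over all genes tested 18.5% were lower in CiPC against P5.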

How the data were processed

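RNA sequencing values were given as normalized CPM, a signal per gene, scaled for library size, that the authors deposited for 33 of the 36 samples. The submitters' processing notes name kallisto, which assigns reads to transcripts by pseudoalignment. Which version and index were used, the build, and how libraries were scaled were not given in the sources used here. The values are not whole reads, so no count test was used, and the depth is unknown. Column sums differ between libraries, and CPM values are not adjusted for gene length, so levels were not compared between genes.

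Genes with at least 1 CPM in at least 3 libraries (2 where a group had 2 libraries) were tested on log2(CPM + 1) with limma 3.58.1 in R 4.3.3, with moderated variances and a mean trend, two-sided. Fold changes are on that scale, which understates those of low genes. Adjusted p is Benjamini-Hochberg over all genes tested, and a call needs a 2-fold change or more and an adjusted p under 0.05. The code was tested on simulated data. Gene positions come from GENCODE M21 on GRCm38, matched for 15144 of 15289 identifiers, and promoters from RefSeq on GRCm38.p6.

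The text names 15 anchor genes, the 15 highest and 15 lowest called genes with a mean of at least 10 CPM in 1 group and no overlap, and up to 4 members per direction of each gene list described. Genes with numbered names were left out, and some genes are not reported here. The comparison, the lists and the named genes were chosen with earlier results of these data known. Alternatives were other pseudocounts, filters, scalings, fold thresholds, rod ages, a replicate block and leaving out each library.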

Additional observations from a re-analysis of the deposited data

Results flagged for a closer look

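Of the genes named by the rule, 6 had a log2 fold change of CiPC that differed between P2 and P4 rods, by the P4 against P2 contrast in limma. The difference, P4 minus P2, was 1.49 for Pde6b, 1.31 for Rcvrn and 1.08 for Gnat1, all of them phototransduction genes. It was 1.44 for Rlbp1, 1.13 for Cryab and -1.10 for Mki67.

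At 3 genes 1 of the 4 rod libraries stood apart by Dixon's ratio of gap to range on the log2 scale, with a ratio of 1 for Npvf, 0.929 for Crispld2 and 0.833 for Anxa3. In each case it was P2 replicate 2, at 0 and 0.0299 CPM of Npvf, 0.392 and 0.754 CPM of Crispld2 and 0.621 and 1.41 CPM of Anxa3 in the 2 P2 libraries. All 3 genes were near 0 in the rods, and chance flags about 1 in 20 such groups.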

How the results depend on the processing

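The counts over all genes stayed within 1.5 times under most alternatives. A fold of 1.5 in place of 2 gave 4097 lower genes in CiPC, and no fold threshold gave 4993 higher and 5037 lower. Leaving out 1 library gave 2350 to 2938 higher and 2564 to 2730 lower, and for P4 against P2 rods 88 to 216 higher and 260 to 489 lower. Without a CiPC library only 13056 to 13061 genes were tested against P2 and P4 rods, and 2350 to 2448 were higher. Genes under 1 CPM in all rod libraries then fail the filter of 3 libraries. Acta2, Npvf, Lcn2 and F5 were among them, so their calls were not checked against the loss of a CiPC library. With P5 in place of P2 and P4 rods 18 named genes changed sign. These were Slc24a1 at -3.40, Guca1b -3.15, Hes5 2.01, Sfrp2 0.74, Fgf15 2.10, Tfap2b 1.26, Nefl 0.19, Isl1 -2.88, Grm6 -2.56, Trpm1 -1.59, Gpr179 -1.83, Vsx1 -2.28, Sox9 1.18, Cdkn1a -1.46, Pdgfra 2.23, Klf4 2.07, Pmepa1 0.92 and Pdk1 1.16. The cause was not tested, and age and series cannot be told apart. Equal column sums gave 2687 higher and 3082 lower genes. Fitting P2 and P4 rods as 2 groups gave 2848 higher and 2646 lower genes in CiPC. For P5 against P2 and P4 rods quantile normalization gave 1559 higher and 1648 lower. With the replicate number as a block, CiPC had 2913 higher and 2681 lower genes, P4 against P2 rods 123 and 351, and P5 against P2 and P4 rods 1218 and 1986. The deviations of same-numbered libraries correlated at -0.0265 to 0.276. With 2 libraries at each rod age the deviations mirror each other, so this check could not decide whether the numbers pair the samples. Depth is unknown, so no counting error can be given, and levels near 0 are uncertain.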

Other observations

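The rule for named genes left out genes with numbered names, and a pair of these, chosen after their values were seen, had larger falls than any gene named. Rpl23a-ps3, an annotated ribosomal protein pseudogene, measured 0, 0 and 0.275 CPM in CiPC, against 141 and 131 CPM in P2 rods and 137 and 136 CPM in P4 rods. P5 rods had 0, 0 and 0.0981 CPM and P6 rods had 133, 111 and 127 CPM. Gm8797 measured 0.441, 0.188 and 0.33 CPM in CiPC, against 125 and 99.97 CPM in P2 rods and 117 and 93.3 CPM in P4 rods, with 0.395, 0.234 and 0.905 CPM at P5 and 84.2, 152 and 103 CPM at P6. The MEF had 0.129, 0 and 0 CPM of Rpl23a-ps3 and 22.4, 18.5 and 21.4 CPM of Gm8797. Both genes were thus high in the P2, P4 and P6 rods of the older series and under 1 CPM in the CiPC and the P5 rods of this one. How reads shared with near-identical copies were divided is not given in the sources used here.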
